A study of Mus musculus with 15 samples.

Results

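The polyadenylation factor genes described here are *Cstf1*, *Cstf2*, *Cstf2t*, *Cstf3*, *Cpsf1*, *Cpsf2*, *Cpsf3*, *Cpsf4*, *Nudt21* and *Pcf11*. They were chosen by gene symbol, and all 10 were found once among the 32285 genes of the count tables. The data are single-cell RNA-seq of dissociated testes from adult DBA/2J males, with 1 mouse per library and 3 libraries in each of 5 groups. Mice of T and R received JQ1, an inhibitor of the testis bromodomain protein BRDT and its relatives, by intraperitoneal injection (3 wk, 50 mg/kg each day), and were killed at once at 10 wk of age (T) or after a further 6 wk without drug at 16 wk of age (R). The vehicle groups VC-T and VC-R received DMSO in (2-hydroxypropyl)-β-cyclodextrin and were taken at 10 and 16 wk of age. Untreated males of 15 wk (UC) served both comparisons, so age and treatment cannot be told apart where T is set against UC.

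Almost all messenger RNAs end by cleavage followed by addition of a poly(A) tail. The cleavage and polyadenylation specificity factor (CPSF) reads the AAUAAA signal upstream of the cleavage site, the cleavage stimulation factor (CstF) binds the U- or GU-rich sequence downstream of it, and cleavage factors I and II complete the machinery. Which of several sites in a 3′ UTR is used depends on these factors. Male germ cells are known for their use of upstream sites, less canonical signals and short 3′ UTRs, which become most pronounced in haploid cells, and for a retroposed copy of *Cstf2*, *Cstf2t*, which encodes τCstF-64.

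The 72362 cells kept included 2109 cells named spermatogonia-like and 15970 named spermatocyte-like. The haploid classes held 23109 spermatid-like and 26184 spermatozoa-like cells, and 4 somatic classes held the others. All classes were named from markers and clustered without the 10 genes. Levels are given as CPM, a gene's UMIs per 1000000 UMIs summed from the cells of a class in a library. A lower CPM can come from fewer cells with the transcript or from less of it per cell, and these cannot be told apart in such sums. Median UMIs per cell ranged from 2454.5 to 4213 between libraries. T held 9, 1 and 12 spermatozoa-like cells, so this class was not compared in T. The library labelled VC-T 1 held 1 such cell, while VC-T 2 and VC-T 3 held 1007 and 1650, and the VC-T comparisons in spermatid-like cells are given with and without it. In R, 77.2% of the spermatid-like cells belonged to 4 clusters whose median UMIs were under 0.6 of their libraries' medians. The share was 15.9% in UC, 6.21% in T, 24.6% in VC-T and 12.6% in VC-R. The counts in R spermatid-like cells are given with and without those clusters. Any pair of libraries shared at most 46 cell barcodes (T 1 with R 3), and the largest share of the smaller library was 0.554% (R 3 with UC 1).

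The annotated 3′ ends of the genes themselves, taken from GENCODE vM21 on GRCm38, show the signal that the complex reads. They are shown because CPSF and CstF process their own transcripts too, and because the genes differ in which signal they carry. Each line gives 30 bases of the sense strand with the signal in capitals.
*Cstf2* (chrX:134086790-134086819, plus strand): ctgtcgtggattcAATAAAtattttaaaag
*Cstf1* (chr2:172382412-172382441, plus strand): tgtgatttctaaAATAAAttttttttatat
*Nudt21* (chr8:94015500-94015529, minus strand): cactgttatttcAATAAAaatatttaaaac
*Cpsf4* (chr5:145182010-145182039, plus strand): tctatgaggttgATTAAAaagcttgttttt
*Pcf11* (chr7:92643555-92643584, minus strand): tacatatacagtATTAAAacttgtgatttt
AATAAA was found in the last 50 bases of the longest transcript of 5 genes (*Cstf1*, *Cstf2*, *Cstf3*, *Cpsf2* and *Nudt21*), and ATTAAA without it in 2 (*Cpsf4* and *Pcf11*). Neither was found there in *Cstf2t*, *Cpsf1* and *Cpsf3*. Only the transcript's own strand was searched. Over 21877 protein-coding genes the shares were 59.2% with AATAAA, 13% with ATTAAA alone and 27.8% with neither.

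*Cstf2* lies on the X chromosome (GRCm38, 134059187 to 134086819) in 14 exons, and its annotation overlaps that of *Nox1* on the opposite strand by 399 bases. *Cstf2t* lies on chromosome 19 (31082837 to 31087069) in 1 exon, wholly inside *Prkg1* on the opposite strand. Both encode the 64-kDa, RNA-binding subunit of CstF. The sources used here do not say whether intronic reads were counted, and reads shared between the pair could be split or dropped in counting, so their values carry that uncertainty.

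*Cstf2* was high in untreated spermatogonia-like cells, nearly absent from spermatocyte-like cells and high again in spermatid-like cells. In UC 1, 2 and 3 it was at 39.3, 45.1 and 46.9 CPM in spermatogonia-like cells, from 4, 11 and 20 UMIs. In spermatocyte-like cells it was at 6.94, 1.75 and 4.88 CPM, and in spermatid-like cells at 41.0, 50.6 and 46.4 CPM. No library's value in spermatocyte-like cells came near its values in the classes before and after. In spermatozoa-like cells it was at 15.7, 12.9 and 13.9 CPM.

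The level of *Cstf2* fell from spermatogonia-like to spermatocyte-like cells by 2.50 on the log2 scale (SE 0.461, adjusted p = 0.000478, edgeR's quasi-likelihood test), then rose by 3.59 in spermatid-like cells (SE 0.313, adjusted p = 6.68e-07). The whole libraries, all barcodes together, had 19.3, 22.0 and 22.4 CPM of *Cstf2*, and free RNA from lysed cells was not separated from the cells' own. After an assumed 10% of free RNA was subtracted, the mean in UC spermatocyte-like cells was 2.76 CPM, against 4.52 ± 2.62 CPM (SD, n = 3) as counted. All 12 other libraries also had between 1.89 and 7.05 CPM in this class.

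The X chromosome as a whole moved in the same directions. Of 480 X-linked genes tested, 57.5% were lower in spermatocyte-like than in spermatogonia-like cells, with a median log2 fold change of -2.59, against 23.1% and 0.46 over all 15551 genes. From spermatocyte-like to spermatid-like cells 62.3% of the X-linked genes were higher, with a median of 2.42, against 38.2% and -0.09 over all genes. X-linked genes were taken as a comparison after the values of *Cstf2* were seen. *Cstf2* lay near the first of these medians, at -2.50, and above the second, at 3.59. Silencing of the X chromosome during meiosis is well known, and its part in these values was not tested.

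*Cstf2t* had a different course: its values overlapped between spermatogonia-like and spermatocyte-like cells and fell into spermatid-like cells. It was at 19.6, 16.4 and 14.1 CPM in spermatogonia-like cells of UC 1, 2 and 3, from 2, 4 and 6 UMIs, and at 16.1, 23.4 and 20.4 CPM in spermatocyte-like cells. In spermatid-like cells it was at 1.98, 1.84 and 2.20 CPM, from 6, 7 and 12 UMIs, and in spermatozoa-like cells at 0.198, 0.495 and 1.02 CPM. The fall into spermatid-like cells was 7.70-fold (log2 fold change -2.94, SE 0.265, adjusted p = 8.37e-07, edgeR) and held in the VC-R libraries (log2 fold change -2.69). A rise from spermatogonia-like to spermatocyte-like cells (log2 fold change 1.09, SE 0.374, adjusted p = 0.0258) depended on the scaling: it was 0.71 with DESeq2 size factors and 0.41 with library totals, and neither passed. It also did not pass without UC 2 (0.99) or without UC 3 (1.11).

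**Figure D1:**
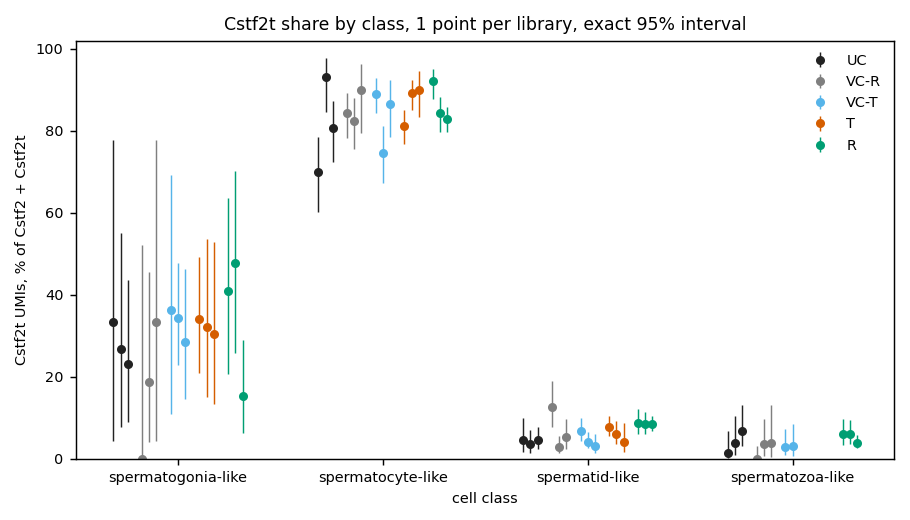
Percentage of *Cstf2t* among the *Cstf2* and *Cstf2t* UMIs (y axis) by cell class (x axis), 1 point per library coloured by group, with exact 95% binomial intervals that cover counting error only. Every library lies at or above 69.9% in spermatocyte-like cells and at or below 12.5% in spermatid-like cells.

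The pair exchanged places at both boundaries. Over the 8 control libraries (UC, VC-R, VC-T 2 and VC-T 3), *Cstf2t* made up 24.8% ± 11.4 (SD, n = 8) of the UMIs of the pair in spermatogonia-like cells and 82.7% ± 7.66 in spermatocyte-like cells. It was higher in spermatocyte-like cells in 8 of 8 libraries, by 57.9 percentage points (two-sided exact permutation test on paired libraries, p = 0.00781, the smallest that 8 pairs allow). In spermatid-like cells the share was 5.07% ± 3.11 and in spermatozoa-like cells 3.11% ± 2.00. The lowest share in spermatocyte-like cells, 69.9% in UC 1 (exact 95% interval 60.1 to 78.5%), was above the highest in spermatogonia-like cells of these libraries, 34.4%. Some spermatogonia-like shares rest on few UMIs of *Cstf2t* and *Cstf2*, 0 and 5 in VC-R 1 and 2 and 4 in both UC 1 and VC-R 3. Their exact 95% intervals reach 52.2% in VC-R 1 and 77.7% in UC 1 and VC-R 3, the latter overlapping the interval above. UMIs of 3′ tags are not scaled for length or for how well each 3′ end is captured, so these shares compare stages, not the amounts of both proteins.

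Ordering the germ cells along a diffusion pseudotime, again built without the 10 genes, resolved the exchange. In 20 bins of equal cell number, UC had 39.4 ± 5.67 CPM of *Cstf2* in bin 1, which holds nearly all spermatogonia-like cells and 1244 spermatocyte-like ones. It had 0.409 ± 0.709 CPM in bin 2, from 1 UMI in 260 cells, and stayed at or below 1.26 CPM through bin 5. *Cstf2* then rose from 3.54 ± 1.33 CPM in bin 6 to 18.8 ± 7.41 in bin 7 and to 58.9 ± 6.64 in bin 12. These are means ± SD over 3 libraries. Over all libraries, bin 6 holds 1726 spermatid-like and 1643 spermatocyte-like cells and bin 7 holds 3064 and 305.

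*Cstf2t* stayed between 17.2 and 25.1 CPM in UC from bin 1 to bin 6, was at 6.19 ± 1.18 CPM in bin 7 and at 0.446 ± 0.773 CPM in bin 10. In bins 11 and 12 no *Cstf2t* UMI was found among 768 UC cells with 4398077 UMIs, which allows a level of up to 0.682 CPM for counting error alone, while *Cstf2* had 262 UMIs in the same cells. *Nudt21* and *Pcf11* showed other courses. *Nudt21* was at 343 ± 27.3 CPM in bin 1, 263 ± 11.2 in bin 7 and 21.5 ± 1.62 in bin 13, and *Pcf11* was highest at 133 ± 10.9 CPM in bin 11 and at 48.6 ± 8.80 in bin 13.

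**Figure D2:**
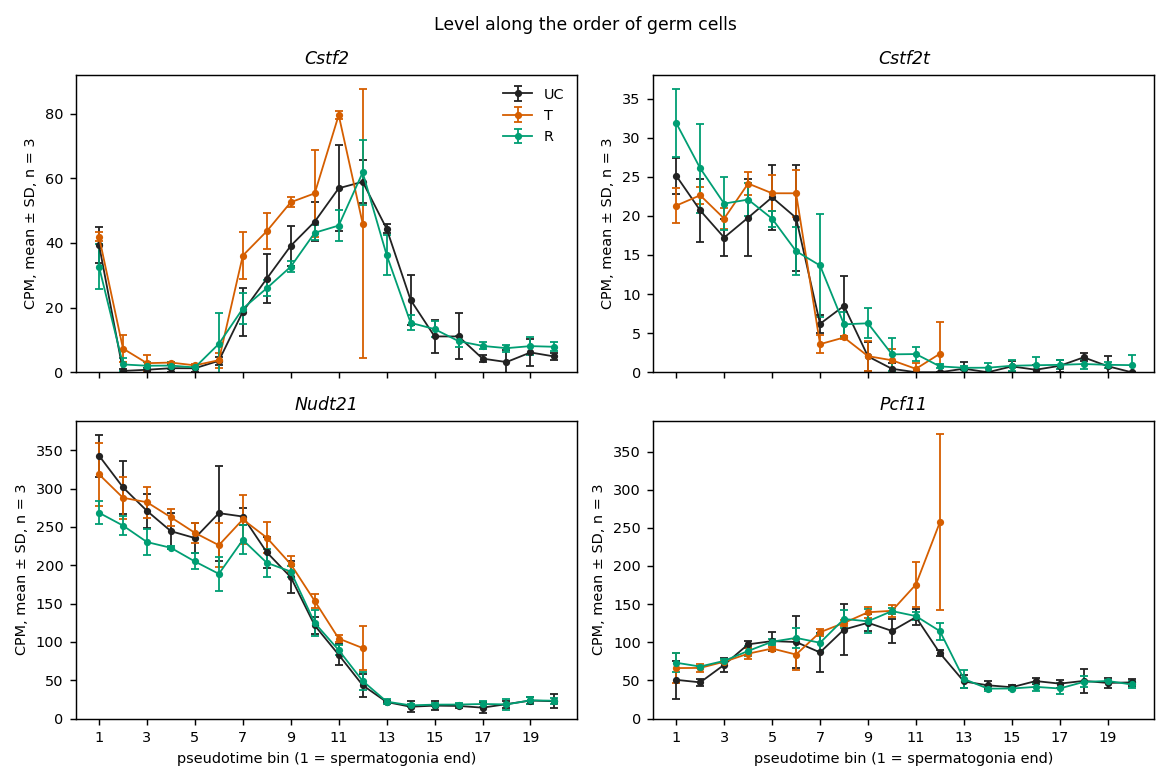
Level of *Cstf2*, *Cstf2t*, *Nudt21* and *Pcf11* in CPM (y axis) along 20 pseudotime bins (x axis, 1 is the spermatogonia end), as the mean ± SD of 3 libraries of UC, T and R where each library had at least 10 cells in the bin. *Cstf2* is near 0 in UC from bin 2 to bin 5 while *Cstf2t* stays between 17.2 and 25.1 CPM from bin 1 to bin 6, and T ends at bin 12.

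The genes most like *Cstf2* over the 12 UC sums of library and class, by Pearson's r of log2(CPM + 1) among genes with a mean of at least 20 CPM, were *Pdk3* (0.98), *Zfp462* (0.98), *Atp5mpl* (0.98), *Phlpp1* (0.98) and *Suv39h2* (0.97). Of these only *Pdk3* is X-linked. Those most like *Cstf2t* were *Zfp397*, *Nck1*, *Ccdc77*, *Iqcb1* and *Luc7l2*, each with r = 0.99. The 12 points share 3 libraries and 4 classes, so r describes the course over the classes.

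The other CstF subunits did not follow the pair. *Cstf1*, which encodes the 50-kDa subunit, was at 19.6, 36.9 and 23.4 CPM in UC spermatogonia-like cells and at 60.7, 68.5 and 68.4 CPM in spermatocyte-like cells, without overlap. It rose by 2.02 on the log2 scale (SE 0.288, adjusted p = 6.17e-05, edgeR), and by 1.63 and 1.30 with DESeq2 size factors and library totals. It stayed at 49.9, 55.6 and 63.8 CPM in spermatid-like cells (log2 fold change 0.12, SE 0.179, adjusted p = 0.560), and this difference was 0.51 with DESeq2 size factors, where it passed, and -0.22 with library totals. *Cstf3*, which encodes the 77-kDa scaffold that joins the subunits, was at 187, 73.8 and 110 CPM in spermatogonia-like, 38.3, 57.3 and 52.2 CPM in spermatocyte-like, 16.2, 13.1 and 19.3 CPM in spermatid-like and 2.18, 1.98 and 2.04 CPM in spermatozoa-like cells. Its fall was 2.39-fold into spermatid-like cells (log2 fold change -1.25, SE 0.202, adjusted p = 9.18e-05). Its first step (-0.43, adjusted p = 0.148) passed only with DESeq2 size factors (-0.84) and library totals (-1.19).

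The mean levels of the 4 CPSF genes were lower in each later class on the CPM scale. *Cpsf1* encodes the large scaffold of the signal-reading module, *Cpsf4* its zinc-finger subunit that contacts the AAUAAA signal, *Cpsf3* the endonuclease that cuts the transcript and *Cpsf2* the inactive relative with which it pairs. The mean of *Cpsf4* in UC was 24.1 ± 4.26 CPM (SD, n = 3) in spermatogonia-like, 21.5 ± 4.75 in spermatocyte-like, 2.40 ± 0.570 in spermatid-like and 1.61 ± 0.824 in spermatozoa-like cells. Its fall into spermatid-like cells was 7.27-fold (log2 fold change -2.86, SE 0.255, adjusted p = 7.87e-07), close to that of *Cstf2t*. The falls of *Cpsf1*, *Cpsf3* and *Cpsf2* there were 2.86-, 2.23- and 2.01-fold.

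*Cpsf1* was the CPSF gene that also fell from spermatogonia-like to spermatocyte-like cells, from 68.7, 65.6 and 53.9 CPM to 13.7, 22.0 and 22.5 CPM (log2 fold change -0.88, SE 0.229, adjusted p = 0.00546). The call was lost without UC 3 (-0.98, adjusted p = 0.0661) and with VC-R in place of UC (-0.44). *Cpsf2* and *Cpsf3* were at -0.21 and -0.19 and did not pass, and *Cpsf2* passed with DESeq2 size factors (adjusted p = 0.0196) and at -0.96 with library totals.

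*Nudt21*, which encodes the small subunit of cleavage factor I that binds UGUA upstream of cleavage sites, had a lower mean CPM in each later class. It was at 373, 385 and 337 CPM in UC spermatogonia-like, 243, 264 and 247 in spermatocyte-like, 143, 118 and 139 in spermatid-like and 18.2, 15.0 and 22.1 CPM in spermatozoa-like cells. The first step did not pass and depended on the scaling and the control: the log2 fold change was 0.26 with TMM (SE 0.210, adjusted p = 0.331, edgeR), -0.55 with library totals (adjusted p = 0.0198) and 0.64 with VC-R in place of UC (adjusted p = 0.0149). The fall into spermatid-like cells was 0.58 on the log2 scale (SE 0.202, adjusted p = 0.0196), was 0.18 with DESeq2 size factors and did not pass there, and it also did not pass without UC 2 or without UC 3 (-0.56 and -0.61).

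*Pcf11*, a cleavage factor II subunit that links 3′ processing to transcription termination, was the other gene besides *Cstf2* to rise into spermatid-like cells. It went from 71.9, 81.0 and 77.9 CPM to 115, 112 and 112 CPM (log2 fold change 0.90, SE 0.288, adjusted p = 0.0118), and the call was lost without UC 2 or without UC 3 (0.84 and 0.92). In spermatogonia-like cells *Pcf11* was at 9.82, 53.3 and 75 CPM, the first from 1 UMI, and these overlap the spermatocyte-like values. The rise between these classes was 1.22 on the log2 scale (SE 0.364, adjusted p = 0.0125). It was 0.84, 1.14 and 1.95 without UC 1, 2 and 3, lost its call without UC 2 (adjusted p = 0.111), and did not pass with library totals (0.49) or with free RNA subtracted (1.42, adjusted p = 0.127). In spermatozoa-like cells *Pcf11* was at 47.6, 42.2 and 48.2 CPM (log2 fold change 0.06, SE 0.286, adjusted p = 0.891).

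**Figure D3:**
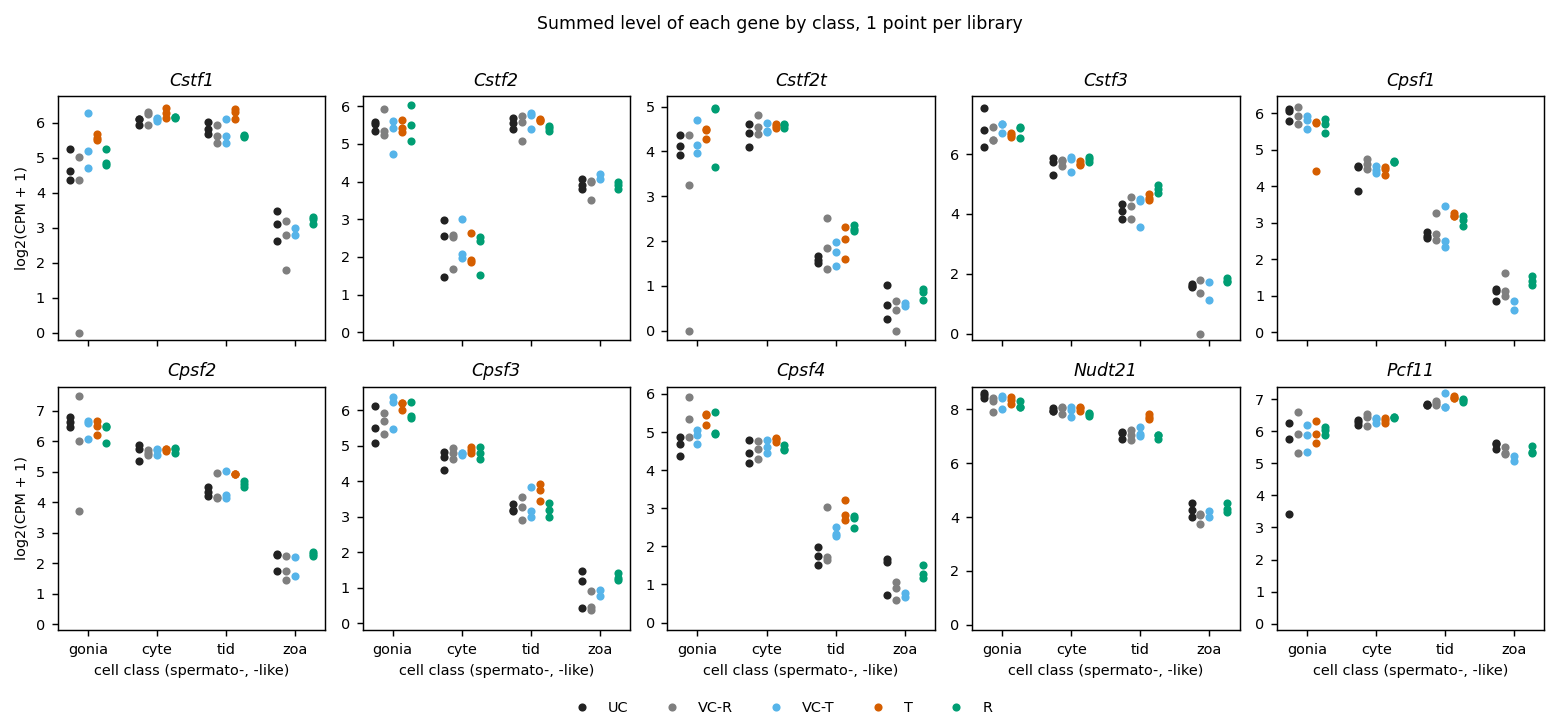
Level of each gene as log2(CPM + 1) (y axis) in the 4 germ cell classes (x axis: spermatogonia-, spermatocyte-, spermatid- and spermatozoa-like), 1 point per library coloured by group. *Cstf2* dips in spermatocyte-like cells in every library, *Cstf2t* and *Cpsf4* drop in spermatid-like cells, and *Pcf11* peaks there.

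Counted over the set, 5 of the 10 genes passed an adjusted p of 0.05 between spermatogonia-like and spermatocyte-like cells, where 52.9% of all 15551 genes did (29.8% higher and 23.1% lower). *Cstf1*, *Cstf2t* and *Pcf11* were higher and *Cstf2* and *Cpsf1* lower, and the calls of *Cstf1*, *Cstf2* and *Cpsf1* held under all 3 scalings (TMM, DESeq2 size factors and library totals). Between spermatocyte-like and spermatid-like cells 9 passed, 7 lower and 2 higher, beside 77% of all genes, of which 38.8% lower and 38.2% higher. The median of the 10 was -1.08 on the log2 scale, against -0.09 over all genes.

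Between spermatid-like and spermatozoa-like cells 6 passed, all lower, beside 53.8% of all genes (25% higher and 28.8% lower). The scaling carried much of this comparison. The TMM factors of UC were 0.353 to 0.393 in spermatozoa-like and 0.943 to 1.01 in spermatid-like cells, and the median of all genes was -0.13 with TMM, 0.16 with DESeq2 size factors and -1.46 with library totals. *Cstf1* (-1.54), *Cstf3* (-1.61), *Cpsf2* (-1.17), *Cpsf3* (-1.55) and *Nudt21* (-1.50) fell under all 3 scalings. *Cpsf1* (-0.90) lost its call with DESeq2 size factors and without any 1 of the 3 libraries, while *Cpsf4* turned from 0.80 (not passing) with TMM to 1.13 with DESeq2 size factors, where it passed, and -0.54 with library totals.

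**Figure D4:**
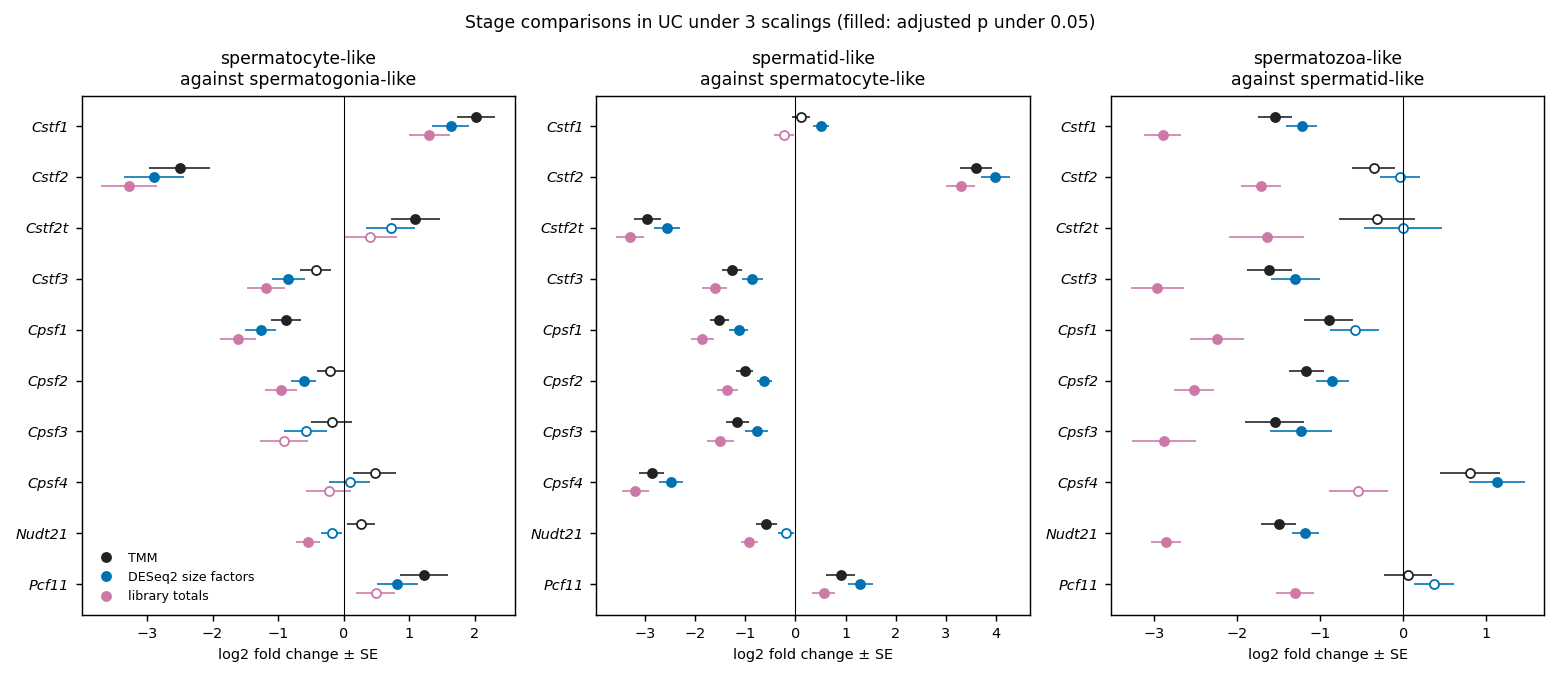
Log2 fold change ± SE of each gene (x axis) in the 3 stage comparisons of UC under TMM, DESeq2 size factors and library totals, with filled points at an adjusted p under 0.05. *Cstf2* (-2.50, then 3.59 with TMM) and *Cstf2t* (-2.94 into spermatid-like cells) keep sign and call at those steps under all 3 scalings, and library totals shift the last comparison to lower values.

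The somatic classes are given for reference. Pooled over 15 libraries, the 3784 Sertoli-like cells had 20.5 CPM of *Cstf2* (164 UMIs) and 5.62 CPM of *Cstf2t* (45 UMIs). *Nudt21* had 120 CPM and *Pcf11* 57.2 CPM there. R gave 2883 of these cells, 2041 of them from R 3, so the pooled values weigh these libraries most. Without T 2 and VC-T 1, which held 9 and 7 such cells, the median over 13 libraries was 15.5 CPM for *Cstf2* (4.13 to 39.7). For *Cstf2t* it was 4.75 CPM (0 to 19.9). Free RNA from germ cells was not separated from these values.

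In the JQ1-treated mice, most of the 10 genes made up a larger part of the UMIs of spermatid-like cells than in untreated mice. *Nudt21*, *Cpsf2* and *Cpsf4* are given first because they passed the test below. *Cstf1* (68.6 to 83.7 CPM in T, 49.9 to 63.8 in UC), *Cstf3* (21.2 to 24.3, 13.1 to 19.3) and *Cpsf1* (8.11 to 8.67, 4.96 to 5.68) were also higher without overlap. So were *Cpsf3* (9.92 to 14.3, 7.87 to 9.26) and *Pcf11* (132 to 137, 112 to 115), while *Cstf2* and *Cstf2t* overlapped. *Nudt21* was at 200, 225 and 211 CPM in T 1, 2 and 3 and at 143, 118 and 139 CPM in UC, without overlap. *Cpsf2* was at 29.6, 29.5 and 29.1 CPM in T and at 17.2, 19.2 and 21.6 CPM in UC. *Cpsf4* was at 8.25, 6.13 and 5.41 CPM in T and at 2.98, 1.84 and 2.38 CPM in UC, from 9, 7 and 13 UMIs in UC. Median UMIs per spermatid-like cell were 2247 to 3154 in T and 4024 to 5399 in UC. Counted per 1000 cells, *Cpsf2* had 115 ± 13.2 UMIs in T and 111 ± 21.2 in UC (SD, n = 3), *Nudt21* 826 ± 106 and 755 ± 30.7, and *Cpsf4* 26.0 ± 7.84 and 13.4 ± 1.47. On that scale the *Cpsf2* groups differed by less than their SD, and the *Nudt21* groups by less than the SD of T.

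The log2 fold changes of *Cpsf4* (1.32, SE 0.292, adjusted p = 0.00196), *Nudt21* (0.44, SE 0.0821, adjusted p = 0.000549) and *Cpsf2* (0.36, SE 0.133, adjusted p = 0.0381) passed edgeR's test. These are 3 of 10 genes, beside 48.2% of all 13141 genes (21.9% higher and 26.3% lower), and the median of the 10 was 0.33 against 0.05. The other 7 had log2 fold changes from -0.16 (*Cstf2*) to 0.48 (*Cstf2t*). *Cpsf2* lost its call without any 1 of the 6 libraries, at log2 fold changes of 0.29 to 0.38.

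The marker levels of these cells differed as well. The summed level of 5 spermatozoa markers in spermatid-like cells was 2887 to 3094 CPM in T and 4918 to 5814 CPM in UC, and that of 7 spermatocyte markers 770 to 836 CPM in T and 404 to 482 CPM in UC. No marker of either list was at 0 in T or UC. *Nudt21* falls along this course, as do *Cpsf2* and *Cpsf4*. With 369 spermatid-like cells per library matched on pseudotime, none of the 8 genes that could be tested passed in edgeR, and none had an unadjusted p under 0.05, while 17.1% of 10043 genes passed. *Nudt21* was then at 0.12 (adjusted p = 0.341) and *Cpsf2* at -0.011 (adjusted p = 0.977), and *Cpsf4* and *Cstf2t* had too few UMIs to be tested. The part of stage in these values was not tested beyond this matching.

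The choice of control mattered as well. Against VC-T 2 and VC-T 3, 5 genes passed, beside 39.5% of all genes: *Cstf1* (0.51), *Cpsf1* (0.68), *Cpsf2* (0.51) and *Nudt21* (0.43) were higher and *Cstf2* (-0.42) lower. VC-T 2 and VC-T 3 differed in depth, with medians of 1369 and 4475.5 UMIs per spermatid-like cell. Clusters under 0.5 of the library median held 41.4% and 3.66% of these cells, and the part of depth was not tested. Against all 3 VC-T libraries, 0 of the 10 and 0 of 13963 genes passed in edgeR. There 2 of the 10 had an unadjusted p under 0.05, for which no share of all genes is given. In spermatid-like cells VC-T 1 lay near T rather than near VC-T 2 and 3 for *Cpsf2* (31.3, against 18 and 16.4 CPM) and *Cstf1* (68.7, against 48.3 and 41.8 CPM). For *Nudt21* and *Cpsf4* all 3 VC-T libraries lay below T, at up to 161 and 4.70 CPM. The lowest T values were 200 and 5.41 CPM. With library totals in place of TMM, 8 of the 10 were higher in T against UC, beside 61.2% of all genes called in either direction, where the median of all genes was 0.28.

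*Cstf2* and *Cstf2t* in spermatid-like cells of T did not pass against UC. *Cstf2* was at 47.8, 49.6 and 48.4 CPM in T (log2 fold change -0.16, 95% interval -0.38 to 0.058, adjusted p = 0.248) and *Cstf2t* at 3.97, 3.15 and 2.03 CPM (0.48, 95% interval -0.18 to 1.14, adjusted p = 0.255). In spermatid-like cells *Cstf2t* made up 5.89% ± 1.82 (SD, n = 3) of the pair in T and 3.97% ± 0.666 (n = 5) in UC, VC-T 2 and VC-T 3 (two-sided exact permutation test, p = 0.143). In spermatocyte-like cells it was 86.7% ± 4.88 in T and 81.0% ± 9.21 in those controls (exact permutation test, p = 0.393). VC-T 1 had shares of 6.69% and 89.1% in the same classes. With it among the controls the differences were 1.46 percentage points in spermatid-like cells (exact permutation test, p = 0.238) and 4.41 points in spermatocyte-like cells (p = 0.452 by the same exact test). Without the 4 low-UMI clusters the difference in spermatid-like cells was 2.41 points (exact permutation test, p = 0.0714).

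Along the pseudotime *Cstf2* returned in T as well, at 36.1 ± 7.40 CPM in bin 7 and 79.5 ± 1.22 CPM in bin 11, against 18.8 ± 7.41 and 56.9 ± 13.3 CPM in UC. In VC-T, with VC-T 1 included, it was at 23.9 ± 6.69 and 73.3 ± 12.3 CPM, and its range in bin 11 (60.5 to 84.9 CPM) spanned that of T. *Cstf2t* was at 22.9 ± 3.03 CPM in bin 6 and 3.59 ± 1.18 CPM in bin 7 of T. In bin 12, the last that all T libraries reach, *Pcf11* was at 257 ± 116 CPM in T, from 50 UMIs in 111 cells. It was at 85.8 ± 3.72 CPM in UC and at 120 ± 47.2 CPM in VC-T in that bin. *Nudt21* was at 91.9 ± 29.0 CPM there in T and at 43.4 ± 15.0 CPM in UC. Cells of a bin can differ in stage between groups, and the bins were not tested.

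Before the spermatid stage no difference passed. In spermatocyte-like cells 0 of 10 genes passed edgeR's test in T against UC, beside 1.6% of 12370 genes, and DESeq2 called 0. An unadjusted p under 0.05 was reached by 0 of the 10 and by 20.3% of all genes. Their log2 fold changes ran from -0.52 (*Cstf2*, SE 0.511) to 0.19 (*Cpsf4*, SE 0.170). *Nudt21*, with the smallest SE, was at -0.07 (SE 0.0662). In spermatogonia-like cells 0 of the 9 tested genes passed, beside 2.56% of 7220 genes, and DESeq2 called 0. An unadjusted p under 0.05 was found for 0 of the 9, against 14.7% of all genes. The largest difference there was that of *Cstf1* at 0.75 (SE 0.363, adjusted p = 0.353). Whether the T against UC change differs between spermatid-like and spermatocyte-like cells was tested directly, and 0 of 10 passed, beside 2.39% of 15128 genes. *Cpsf4* (0.84, SE 0.277) and *Nudt21* (0.28, SE 0.105) had an unadjusted p under 0.05, as did 17.4% of all genes.

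At 6 wk after the last dose, spermatid-like cells differed from those of untreated mice in 5 of the 10 genes, beside 41% of 14892 genes (21.2% higher and 19.8% lower). *Cpsf4* (0.93, SE 0.285, adjusted p = 0.0108) and *Cstf3* (0.55, SE 0.138, adjusted p = 0.00228) were higher in R. *Cstf1* (-0.47, SE 0.101, adjusted p = 0.000664), *Cstf2* (-0.38, SE 0.107, adjusted p = 0.00635) and *Nudt21* (-0.29, SE 0.0881, adjusted p = 0.00996) were lower. *Cstf3* was at 25.2, 27.8 and 30.6 CPM in R and at 16.2, 13.1 and 19.3 CPM in UC, without overlap. *Cstf2* was at 43.4, 39.8 and 41.8 CPM in R and at 41.0, 50.6 and 46.4 CPM in UC, with overlap.

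These R values changed with the cells kept and with the control. Median UMIs per spermatid-like cell were 1486 to 1985 in R, against 4024 to 5399 in UC, and the part of depth was not tested. Without the 4 low-UMI clusters only *Cpsf4* passed (0.99, adjusted p = 0.0298), beside 17.5% of all genes, and *Cstf3* was at 0.18 and *Nudt21* at -0.03. Against VC-R, 0 of the 10 passed, beside 3.97% of all genes. An unadjusted p under 0.05 was reached by 2, for which no share of all genes is given. With library totals 3 passed, beside 42.7% of all genes, *Cstf3* (0.78), *Cpsf4* (1.15) and *Cstf2t* (0.93), all higher, and *Cstf2* was at -0.15.

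Matched on pseudotime, with 517 spermatid-like cells per library, 3 of the 9 genes tested passed in R against UC, beside 43.6% of 12138 genes. They were *Cstf2t* (1.28, adjusted p = 0.011), *Cstf3* (0.65, adjusted p = 0.00126) and *Cstf2* (-0.54, adjusted p = 0.000625). The summed level of 8 Sertoli markers in spermatid-like cells was 80.5 to 99.4 CPM in R and 31.5 to 49.5 CPM in UC, where *Wt1* alone of the 8 was at 0 (none was in R), and its part in these values was not tested. *Nudt21* lost its call without R 1 (-0.24) and without UC 1 (-0.25).

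**Figure D5:**
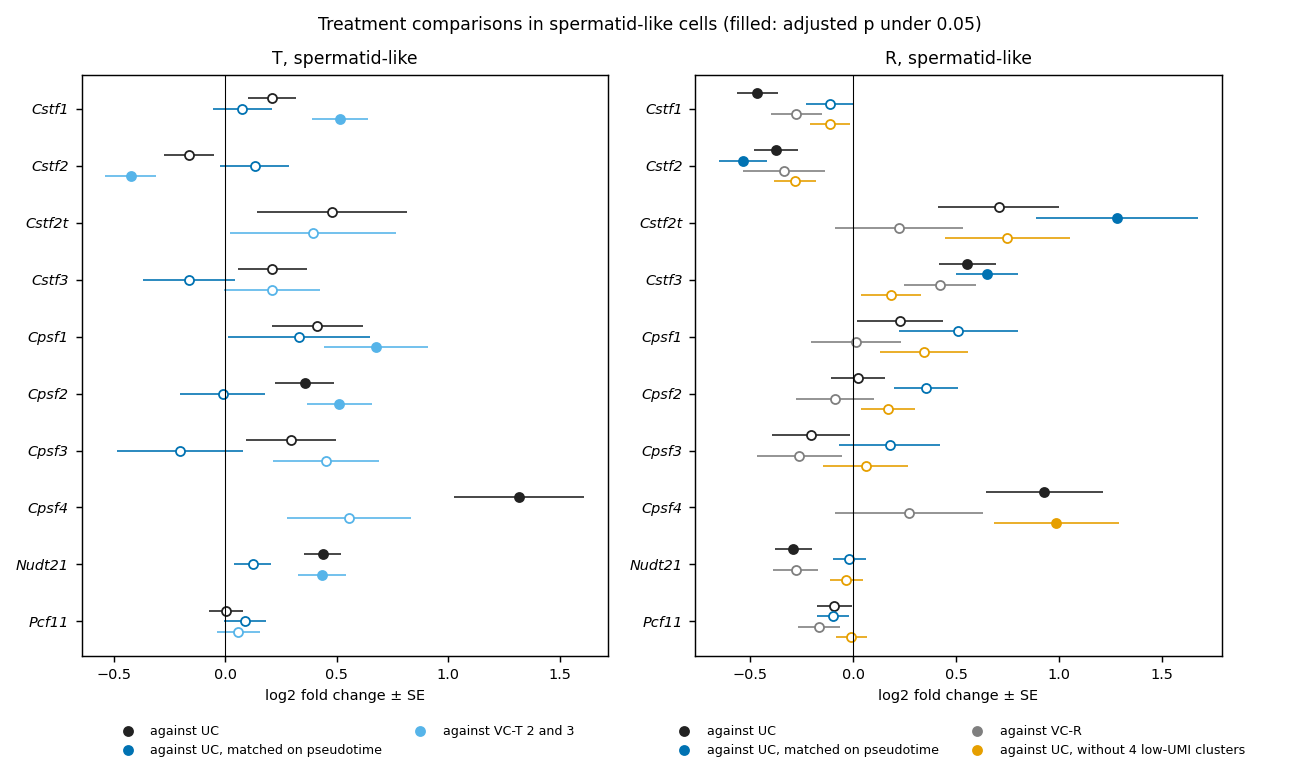
Log2 fold change ± SE of each gene (x axis) in spermatid-like cells of T (left) and R (right), against UC and under other controls and cell selections, with filled points at an adjusted p under 0.05. In T none of the 8 genes that could be tested passes after matching on pseudotime (*Cpsf4* and *Cstf2t* could not). In R no gene passes against VC-R and *Cpsf4* alone passes (0.99) without the 4 low-UMI clusters.

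The share of *Cstf2t* in spermatid-like cells was 8.75%, 8.48% and 8.45% in R 1, 2 and 3. It was 4.62%, 3.5% and 4.53% in UC 1, 2 and 3 and 12.5%, 2.92% and 5.26% in VC-R 1, 2 and 3. The groups overlapped through VC-R 1, and the difference of 3.01 percentage points did not pass (two-sided exact permutation test, 3 against 6, p = 0.214). Without VC-R 1 it was 4.40 points (p = 0.0357 by the same exact test, the smallest that 3 against 5 allows), so this library decides the call. Without the 4 low-UMI clusters the shares in R were 8.37%, 9.32% and 7.36%, and the difference was 2.81 points (exact permutation test, p = 0.333).

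In edgeR no tested gene of the set passed in the other classes of R. In spermatocyte-like cells 0 of 10 passed edgeR's test, beside 0.00732% of 13653 genes, and 1 had an unadjusted p under 0.05, as did 8.52% of all genes. That gene was *Nudt21*, at 213, 225 and 233 CPM in R and 243, 264 and 247 CPM in UC (log2 fold change -0.25, SE 0.0593, adjusted p = 0.364), and DESeq2 called it (adjusted p = 0.00320). In spermatogonia-like cells 0 of 7 passed, beside 0.5% of 6405 genes, and 1 had an unadjusted p under 0.05, beside 12.1%. In spermatozoa-like cells 0 of 10 passed, beside 12.2% of 13103 genes, and 1 had an unadjusted p under 0.05 (*Pcf11*, log2 fold change -0.20), beside 25%. DESeq2 called 0 in either class. *Cstf2* in spermatozoa-like cells was at 12.9, 14 and 15 CPM in R (log2 fold change -0.07, SE 0.120). In VC-R against UC, 0 of the 5, 10, 8 and 6 genes tested in spermatogonia-, spermatocyte-, spermatid- and spermatozoa-like cells passed in edgeR, beside 0% of all genes in the first 3 classes and 0.176% in the last. None had an unadjusted p under 0.05, beside 2.95%, 1.56%, 2.2% and 6.5% of all genes.

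The wider pathway was described through 3 lists: 12 other cleavage and polyadenylation genes, 11 genes of termination and of snRNA or histone 3′ ends, and 16 cytoplasmic poly(A) genes. From spermatocyte-like to spermatid-like cells of UC all 12 of the first list passed, 6 higher and 6 lower, beside 38.2% and 38.8% of all genes. *Ssu72*, a phosphatase of the polymerase tail (-4.59), *Papolg*, a nuclear poly(A) polymerase (-4.36), and *Cpsf7*, a large cleavage factor I subunit (-2.08), fell, and *Cpsf4l*, a paralog of *Cpsf4* (3.75), rose. *Papolg* was at 14.1, 23.8 and 21.7 CPM in UC spermatocyte-like cells and at 0.661, 0.262 and 1.10 CPM in spermatid-like cells. *Cpsf4l* went from 11.4, 2.44 and 2.76 CPM to 61.8, 60.9 and 58.7 CPM, where *Cpsf4* itself fell.

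Of the termination list, 8 of 11 passed at this step, beside 77% of all genes, 1 higher and 7 lower, led by the histone 3′ end factor *Zfp473* (-2.70) and the termination factors *Scaf4* (-2.41) and *Scaf8* (-2.29). *Casp8ap2* was at -2.25. Of the cytoplasmic list, 11 of 15 passed, 6 higher and 5 lower. *Cpeb1*, a cytoplasmic polyadenylation element binding protein (-3.98), the terminal nucleotidyltransferase *Tent5a* (-2.77) and the poly(A)-binding *Pabpc6* (-2.61) fell, and *Tent5d* (3.46) rose. The medians of the 3 lists were -0.22, -0.82 and -0.16.

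From spermatogonia-like to spermatocyte-like cells, where 52.9% of all genes passed, 4 of 12 did in the first list (1 higher and 3 lower), 9 of 11 in the second (5 and 4) and 13 of 15 in the third (8 and 5). *Sympk*, which encodes the scaffold symplekin, rose by 1.22. *Pabpc6* (4.89), *Pabpc2* (4.27), *Pabpc1* (2.74) and the testis poly(A) polymerase *Papolb* (2.71) rose in the third. *Zfp473* (5.84, SE 2.14) rose, and *Casp8ap2* (-2.20), *Lsm11* (-2.17) and *Scaf8* (-1.88) fell. From spermatid-like to spermatozoa-like cells, where 53.8% of all genes passed, 7 of 12 did (3 higher and 4 lower), 5 of 11 (all lower) and 10 of 15 (5 and 5). *Clp1*, which encodes the other cleavage factor II subunit (-2.45), *Rbbp6* (-1.62) and *Wdr33*, a partner of *Cpsf4* in reading the signal (-1.57), fell, and *Sympk* rose (2.42). The 5′ to 3′ exonuclease gene *Xrn2* (-2.29), *Casp8ap2* (-1.42), the histone stem-loop binding gene *Slbp* (-1.36) and *Zc3h14* (-1.22) fell in the second list. In the third *Cpeb3* (2.35) and *Tent5c* (2.12) rose, and *Tent5d* (-2.10) and *Pabpc1* (-1.99) fell.

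In T against UC spermatid-like cells 48.2% of all genes passed, 21.9% higher and 26.3% lower. Of the 10 tested genes of the first list 4 were higher and 3 lower, of the 10 of the second 3 were higher, and of the 13 of the third 2 were higher and 3 lower. *Sympk* was at 53.3, 44.4 and 41.9 CPM in T and at 127, 133 and 115 CPM in UC (log2 fold change -1.63, SE 0.111, adjusted p = 4.07e-08). *Pabpn1*, which encodes the nuclear poly(A)-binding protein, was at 282, 258 and 235 CPM in T and at 426, 508 and 391 CPM in UC (-1.01, adjusted p = 2.51e-06). Neither overlapped. *Cpeb3* was at -1.41 and *Casp8ap2* at 1.09.

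Matched on pseudotime, *Sympk* (-0.58, adjusted p = 0.0162) and *Pabpn1* (-0.31, adjusted p = 0.0139) still passed, at smaller values, and *Cpeb3* was at 0.34 and did not. In VC-T 1 *Sympk* was at 48.5 CPM and *Pabpn1* at 258 CPM, against 159 and 122 CPM and 454 and 412 CPM in VC-T 2 and 3. In spermatocyte-like cells of T 0 of the 12, 11 and 14 genes tested in the 3 lists passed in edgeR, with 0, 2 and 3 at an unadjusted p under 0.05, beside 1.6% and 20.3% of all genes. In spermatogonia-like cells, where 2.56% of all genes passed, *Pabpc6* (1.5) and *Pabpc2* (1.34) of the third list were higher, and 0 of the 11 and 8 genes of the others passed, with 1 and 0 at an unadjusted p under 0.05, beside 14.7% of all genes.

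In R against UC, spermatid-like cells had 1 of 11 higher and 2 lower in the first list, with *Ssu72* at 1.15, then 2 of 10 higher and 4 lower in the second, and 3 of 13 higher and 6 lower in the third, beside 21.2% and 19.8% of all genes. Without the 4 low-UMI clusters 2 of 11, 2 of 10 and 4 of 12 passed, beside 17.5% of all genes. *Ssu72* did not pass against VC-R (0.46) or without the low-UMI clusters (0.87). In spermatozoa-like cells, where 12.2% of all genes passed, 2 were higher and 2 lower in the first list, with *Ssu72* at 1.06. None of 9 passed in the second, where 1 had an unadjusted p under 0.05, beside 25% of all genes. Of the 12 in the third, 3 were higher and 2 lower. No gene of the lists passed in spermatocyte-like or spermatogonia-like cells of R in edgeR, beside 0.00732% and 0.5% of all genes. In spermatocyte-like cells 0 of 12, 0 of 11 and 1 of 14 had an unadjusted p under 0.05, and in spermatogonia-like cells 1 of 10, 0 of 8 and 2 of 10, beside 8.52% and 12.1% of all genes.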

How the data were processed

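The authors prepared 10x Genomics 3′ libraries, sequenced them together and deposited raw UMI counts per gene and barcode, made with Cell Ranger on mm10. The submitters' notes name Cell Ranger 3.0.0 and the matrix headers 7.0.0. Barcodes needed at least 500 genes, at least 1000 UMIs and a mitochondrial share under 30%, the 5.4% with the highest Scrublet score per library were removed, and 31 Leiden clusters (resolution 1.2) were named from markers. The clustering left out the 10 genes, the 3 lists and outcome genes named by the study. UMIs were summed per library and class with at least 10 cells and tested on all genes with edgeR 4.0.16 (TMM, quasi-likelihood test, Benjamini-Hochberg adjustment, R 4.3.3), with the library as a term in stage comparisons and DESeq2 1.42.0 as an alternative. Results pass at an adjusted p under 0.05. Named pathway genes are up to 4 per list and comparison that also exceed 1 on the log2 scale. Those named for a pattern like *Cstf2* or *Cstf2t* are the 5 of highest correlation. In simulated T and UC spermatid-like sums of 12857 genes, 97 genes were changed by 1 and 99 by 0.5 on the log2 scale. Of these changes 70.1% and 35.4% were recovered. In the data 48.2% of genes passed in this comparison, so the recovery there can differ from the simulated one. Total UMIs per library ranged from 9673587 to 98724982. The exact intervals of *Cstf2t* shares cover counting error only, and those of log2 fold changes come from edgeR's SE, which includes variation between libraries. Replicate numbers were taken not to pair mice: same-numbered T and UC libraries deviated together in all 3 pairs (r over 0.1) in spermatocyte-like cells alone of 7 comparisons. The genes and lists were chosen with earlier results of these data known. Positions came from GENCODE vM21, which places 32158 of the 32285 gene IDs. The alternatives were other scalings, filters, controls, free-RNA subtraction, low-UMI clusters, matching on pseudotime and leaving out libraries. The library-total scaling and the removal of the 4 low-UMI clusters were chosen after seeing the data.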

Additional observations from a re-analysis of the deposited data

Results flagged for a closer look

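3 genes of the pathway lists had a T against UC change that differed between spermatid-like and spermatocyte-like cells by edgeR's interaction test, with 2.39% of all genes passing. *Sympk* differed by -1.43 on the log2 scale (SE 0.255, adjusted p = 0.0426). It was at 48.6, 49 and 46 CPM in spermatocyte-like cells of T and at 82.4, 50.6 and 53.5 CPM in those of UC. *Pabpn1* differed by -1.30 (adjusted p = 0.0283) and *Cpeb2*, a cytoplasmic polyadenylation element binding protein, by -0.75 (adjusted p = 0.0431). Matched on pseudotime, *Pabpn1* was at -0.56 (adjusted p = 0.0128) and *Sympk* at -0.58 (adjusted p = 0.232). *Cpeb2* was at 131, 127 and 140 CPM in spermatid-like cells of T and at 119, 130 and 136 CPM in those of UC, and in spermatocyte-like cells at 91.4, 85.7 and 97 CPM in T and at 67.2, 66.4 and 67.3 CPM in UC. The part of the stage of the cells in these differences was not tested beyond the matching. None of the 10 polyadenylation factor genes was among them.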

How the results depend on the processing

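Of 201 alternative values of the 15 main results, 188 kept their direction and their side of the threshold or stayed within 1.5 times the count. Many of these are counts that were 0 in the main fits and stayed at 0. In spermatogonia-like cells matched on pseudotime only 1 gene (T) and 3 genes (R) could be tested. In T against UC spermatid-like cells the count of 3 genes became 8 with library totals and 5 against VC-T 2 and 3. It became 0 against all 3 VC-T libraries and 0 matched on pseudotime, where *Cpsf4* and *Cstf2t* could not be tested. In R against UC spermatid-like cells the count of 5 became 3 with library totals and 1 without the 4 low-UMI clusters. It became 3 of the 9 tested when matched on pseudotime and 0 against VC-R. In R against UC spermatocyte-like cells DESeq2 called 1 gene. Between spermatogonia-like and spermatocyte-like cells the count of 5 became 3 with free-RNA subtraction. With UC as the only control the rise of the *Cstf2t* share was 53.5 points (exact permutation test, p = 0.25, the smallest that 3 pairs allow). The *Cpsf2* difference in T turned to -0.011 after matching on pseudotime. Of the 329 values of single genes, 272 kept call and direction, 56 lost the call and 1 turned. The cause of these changes was not tested.

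Leaving out 1 library at a time gave counts of 3 to 5, 7 to 9 and 5 to 6 in the 3 stage comparisons in order, 2 in each case in T and 4 to 5 in R against UC spermatid-like cells, and 0 elsewhere. The *Cstf2t* share differed by 54.2 to 61.0 points between spermatogonia-like and spermatocyte-like cells, by 2.99 to 8.78 and 1.03 to 2.85 points for T in spermatocyte-like and spermatid-like cells, and by 2.48 to 4.40 points for R, the highest without VC-R 1. With a replicate block the counts were 2 in T and 5 in R spermatid-like cells and 0 in the other classes, and without the library block the stage counts were 5, 9 and 6. The same-numbered libraries correlated between -0.47 and 0.66 (r of deviations). Low counts limit *Cstf2t* and *Cpsf4* in spermatid-like cells and all genes in spermatogonia-like cells.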
